A study of Mus musculus with 8 samples.

Results

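Neuroblasts are the postmitotic or nearly postmitotic daughters of the neural stem cells of the dentate gyrus, on their way to becoming granule neurons. They form from intermediate progenitors that express Eomes and Neurog2, switch on Neurod1, Sox11 and the microtubule-associated protein Dcx, and pass through a stage marked by the calcium-binding protein Calb2 before they mature. Neurogenesis in the mouse hippocampus is high in juveniles and declines with age, so the comparison below asks whether the neuroblasts that are still made at 6-8 months differ in their transcripts from those of 1-month-old mice.

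Cells were selected on their own measured UMIs. A cell was counted as a neuroblast when it held over 500 genes, under 10% mitochondrial UMIs, at least 3 of the 5 markers Neurod1, Igfbpl1, Sox11, Dcx and Cd24a, at most 2 of 10 cycle genes (Mcm2 to Mcm7, Pcna, Top2a, Cdk1 and Ccnb1) and at most 1 of 6 genes of other lineages (Mog, Mag, Mobp, Cx3cr1, Cldn5 and Pdgfra). This gave 1234 neuroblasts of the 15236 barcodes in the 4 libraries compared, in a series of 26036 barcodes in 8 libraries. The library at 1 month held 637 of them. The 3 libraries at 6-8 months held 210, 130 and 257.

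All mice carried heterozygous Ki67-creERT2, Nestin-GFP and tdTomato reporter alleles on a mixed C57BL/6J and CD1 background, and received tamoxifen by oral gavage for 6 days before being culled on day 8. Ki67-creERT2 is active in cycling cells, so tdTomato marks cells that had divided during tamoxifen and their progeny, while Nestin-GFP marks stem and progenitor cells and lingers in their daughters. Male and female mice were pooled in each experiment, and GFP+tdT+ and GFP+tdT- cells of the dissected dentate gyrus were sorted into the same library. A neuroblast could therefore enter only while it was still bright enough for the GFP gate. The 4 libraries share the Version 3 droplet chemistry. The 2-month libraries used Version 2 and are not compared here. They enter only an alternative fit of all 8 libraries, which mixes both chemistries. That fit sums 2-month replicates 1 and 2 into a single sample. With 1 library at 1 month, its age, its pool of mice and its day cannot be told apart.

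The 4 libraries held between 13739260 and 43826338 UMIs, and the summed neuroblasts of a library between 1151999 and 5709642. The median neuroblast had 7812 UMIs at 1 month and 6486, 7958 and 9156 at 6-8 months. No neuroblast barcode sequence occurred in more than 1 of the 4 libraries (0 shared). Neuroblasts made up 19.4% of kept cells at 1 month (exact 95% binomial interval 18.0 to 20.8%), against 8.34%, 3.86% and 4.98% at 6-8 months. The share at 1 month lay above all 3 later libraries, whose mean was 5.72% ± 2.33 (SD, n = 3), but the sort sets what a library holds and no test was made. Such intervals cover counting error only.

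The neuroblast label was checked against genes the rule did not use. Prox1, the homeobox gene of the granule cell lineage, had a UMI in 83.4% of neuroblasts at 1 month and in 82.9%, 83.8% and 88.7% at 6-8 months. It also had a UMI in 35.3% to 52.5% of oligodendrocytes, so its share alone separates the types poorly. In the summed neuroblasts Prox1 stood at 367 CPM (counts per 1e6 UMIs of the summed cells) at 1 month and 503, 372 and 385 CPM later. Neurod2, a later neuronal factor, was found in 42.2% of neuroblasts at 1 month and in 45.7%, 43.1% and 58.8% at 6-8 months, against at most 0.22% of oligodendrocytes. Gad2, which defines GABAergic neurons, was at 0 at 1 month and in replicate 1, and in at most 1.56% of neuroblasts elsewhere. Dlx2, of GABAergic precursors, was at 0 at 1 month and found in 0.952%, 3.85% and 3.11% of neuroblasts at 6-8 months, and the summed level of 14 GABAergic markers was 40.1 CPM at 1 month and 35.7, 243 and 163 CPM later. Both ages thus held the granule-lineage genes widely, while Gad2 and Dlx2 were found in few cells, with the highest shares in replicates 2 and 3.

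Some neuroblasts also held transcripts of oligodendrocyte precursors, and the libraries differed in this. Olig1, Olig2 or Sox10 was found in 11.6% of neuroblasts at 1 month, in 2.38% in replicate 1 at 6-8 months, and in 25.4% and 24.9% in replicates 2 and 3. At least 2 of these genes were found together in 6.75% at 1 month and in 0.952%, 14.6% and 8.56% at 6-8 months. The summed level of 11 precursor markers was 591 CPM at 1 month and 78.4, 1615 and 1017 CPM at 6-8 months. Replicate 1 had the lowest values by each of these measures, and Sox10 and Enpp6 were at 0 there. Levels of 20 markers of astrocytes and neural stem cells, summed, were 2478 CPM at 1 month and 1533, 3974 and 3201 CPM later. The count of changed genes is given below with and without such cells.

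Near the limits of the rule, the 73 cells with exactly 3 markers had a median of 6655 UMIs and the 609 cells excluded with exactly 2 had 7748. The 400 neuroblasts with 2 cycle genes had a median of 8790 UMIs and the 175 cells excluded with 3 had 11611. Neuroblasts with no cycle gene were 116 of 637 at 1 month and 68 of 210, 28 of 130 and 57 of 257 at 6-8 months. The 148 neuroblasts with 1 gene of another lineage had 10776, against 7498.5 for the 1086 with none.

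The transcriptome of neuroblasts at 1 month was about as close to each later library as those were to one another. Over 3392 genes with a mean of at least 50 CPM, the SD of the log2 difference between the 1-month library and replicates 1, 2 and 3 was 0.30, 0.29 and 0.32. Between the later libraries themselves it was 0.38 (replicates 1 and 2), 0.34 (1 and 3) and 0.32 (2 and 3). The number of genes apart by more than 1 log2 unit was 29, 28 and 22 across age, and 54, 28 and 20 within 6-8 months. The 1-month library was the deepest of the 4 summed samples, which lowers the sampling noise of its pairs, and genes are not independent replicates.

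The fit across all genes found few differences. UMIs were summed per library and tested with edgeR's quasi-likelihood F test. The 5641 genes tested were those detected in 20% or more of the neuroblasts of either age. Sez6, Lhx9, Ptgds and Gm8797, described below, passed this filter only through the age at which they were higher. At an adjusted p under 0.05, 5 genes (0.0886% of genes tested) differed between 6-8 months and 1 month: 4 were higher at 6-8 months (0.0709%) and 1 was lower (0.0177%). At an unadjusted p under 0.05 there were 215 genes, or 3.81%. The median SE of a log2 fold change was 0.24. For 5214 genes, 92.4% of those tested, the 95% interval of the change lay within 1 log2 unit of 0, given that the lone 1-month library is assumed to vary like the others. Of the 3392 genes of at least 50 CPM, 3276 (96.6%) had a log2 fold change of under 0.5 in size.

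**Figure D1:**
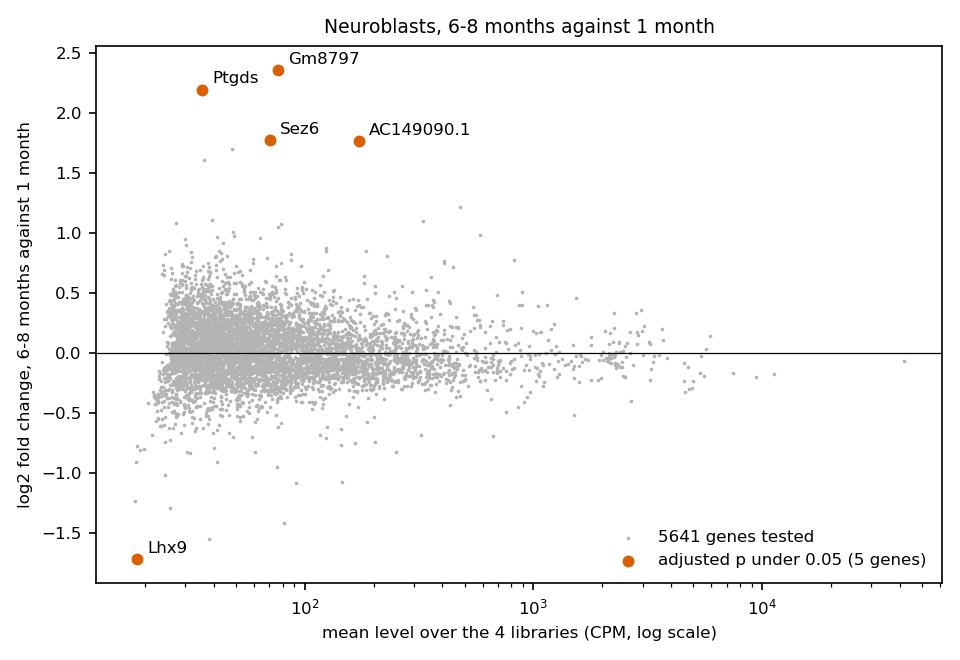
Log2 fold change in neuroblasts between 6-8 months and 1 month (vertical axis) against the mean level over the 4 libraries in CPM (log axis), 1 point for each of 5641 genes. The 5 orange points are the genes with an adjusted p under 0.05, and most other genes lie within 0.5 of 0.

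Sez6, a transmembrane protein of neurons that shapes dendrites and synapses, was the one called gene with an established neuronal role that rose. Its level was 25.0 CPM at 1 month and 58.1, 79.9 and 119 CPM at 6-8 months, with a UMI in 17.0% of neuroblasts at 1 month and in 30.0%, 43.1% and 53.7% later. All 3 later libraries stood above the 1-month library, though these ranged widely among themselves. Sez6 rose by 1.77 on the log2 scale (SE 0.31, 95% interval 1.12 to 2.43, edgeR adjusted p = 0.0204). It lies on chromosome 11 from 77930800 to 77979048 of GRCm38, plus strand. Without replicate 3, the library with its highest level, Sez6 was no longer called.

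Lhx9, a LIM-homeodomain transcription factor, was the one gene that fell. It had 38.9 CPM at 1 month and 10.5, 10.4 and 13.9 CPM at 6-8 months, from 222 UMIs at 1 month and 15, 12 and 34 later. The groups did not overlap, and the 3 later libraries lay close together. The share of neuroblasts with an Lhx9 UMI was 25.3% at 1 month and 5.71%, 8.46% and 9.34% later. Lhx9 fell by 1.71 on the log2 scale (SE 0.29, adjusted p = 0.0129). The gene lies on chromosome 1 from 138825186 to 138848577, minus strand. DESeq2 did not call it.

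Ptgds, a prostaglandin D2 synthase abundant in oligodendrocytes, stood at 9.46 CPM at 1 month and at 56.7, 41.7 and 34.8 CPM at 6-8 months, and rose by 2.20 on the log2 scale (SE 0.35, adjusted p = 0.00766). Its transcript was found in 5.49% of neuroblasts at 1 month and in 31.0%, 20.8% and 24.1% later. The later libraries were also those rich in oligodendrocytes: 34 at 1 month against 1670, 945 and 1339. The summed level of 15 oligodendrocyte markers in neuroblasts was 226 CPM at 1 month and 335, 439 and 336 CPM later. Neuroblasts with at least 3 of these 15 markers, Ptgds among them, made up 10.0% at 1 month and 28.6%, 28.5% and 31.5% later. The 4 tested members of the list had a median log2 change of 0.59 beside 0.01 over all genes, with 3 above 0. Mbp, a myelin gene of the same list, had 22.9 CPM at 1 month and 23.8, 37.3 and 31.5 CPM later. The part of RNA or cells of oligodendrocytes in the change of Ptgds was not tested.

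The other 2 called genes are predicted genes. Gm8797, a gene on chromosome 3 (5750806 to 5751295), rose from 18.6 CPM to 76.3, 82.5 and 127 CPM, by 2.36 on the log2 scale (SE 0.30, adjusted p = 0.00126). AC149090.1 rose from 61.3 CPM to 240, 182 and 207 CPM, by 1.77 (SE 0.24, adjusted p = 0.00185). Both were lowest at 1 month by a wide margin, and their counts are uncertain where reads could also fit a near-identical copy elsewhere. Gm47283, annotated on chromosome Y, had 239 CPM at 1 month and 548, 535 and 594 CPM later and narrowly missed the threshold (1.22 on the log2 scale, SE 0.24, adjusted p = 0.0504).

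The 1-month library lay above all 3 later libraries for 1129 genes (20%) and below all 3 for 1223 (21.7%). If the libraries were exchangeable, a lone library would be the highest with a probability of 0.25 and the lowest with the same probability. Both shares fall below this, so a place outside the later range is by itself no sign of a difference with age. The following uncalled genes of at least 50 CPM had the largest differences among the genes outside that range. They are given as values.

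Among the genes higher at 6-8 months, Ccnd2, the D-type cyclin of neuronal progenitors, had 175 CPM at 1 month and 333, 435 and 372 CPM later (1.10 on the log2 scale, SE 0.23, adjusted p = 0.113). Egr1, an immediate early transcription factor, had 334 CPM and then 651, 637 and 709 CPM (0.99, SE 0.24, adjusted p = 0.211). Spry2, an antagonist of receptor tyrosine kinase signalling, had 37.5 CPM and then 88.9, 54.7 and 74.9 CPM. In each of these the 1-month library was the lowest of the 4. DESeq2 and the fit scaled by total UMIs both called Ccnd2, Egr1 and Gm47283.

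A pair of sterol genes was in the same group. Insig1, the membrane protein that restrains sterol synthesis when cholesterol is high, had 42.7 CPM at 1 month and 77.7, 99.0 and 96.1 CPM later (1.07 on the log2 scale, SE 0.24, adjusted p = 0.127). Hmgcs1, the enzyme that makes the precursor of mevalonate, had 76.4 CPM and then 120, 163 and 135 CPM (0.85, SE 0.23, adjusted p = 0.359). Gm2000 and Gm26735 were also in this group, and the second overlaps Sox4 on the opposite strand.

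Among the genes lower at 6-8 months, Vim, the intermediate filament of neural progenitors, had 149 CPM at 1 month and 54.6, 101 and 61.0 CPM later (−1.08 on the log2 scale, SE 0.25, adjusted p = 0.161). Hmgb2, a chromatin protein of cycling and recently cycling cells, had 372 CPM and then 251, 216 and 169 CPM (−0.82, SE 0.23, adjusted p = 0.422). Mdk, the growth factor midkine, had 929 CPM and then 660, 546 and 527 CPM. Ndn, the imprinted gene necdin, had 289 CPM and then 211, 149 and 163 CPM. For all 4 of these genes the 1-month library was the highest and the difference missed the threshold. Vim and Hmgb2 were also not called among neuroblasts with no cycle gene, a smaller set.

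Ppp1r14c, an inhibitor of protein phosphatase 1, went from 206 CPM to 106, 138 and 125 CPM, and Fam213b, a prostamide and prostaglandin F synthase, from 118 CPM to 60.2, 61.6 and 63.4 CPM. Txnip, which binds thioredoxin, went from 174 CPM to 115, 97.2 and 109 CPM. The other genes of this group were Gm10076, Gm9844, Klhl35, Pdlim4 and Tac2, which is described with the stages below. Fam213b was the most even, with an SD of 1.60 CPM over the 3 later libraries.

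**Figure D2:**
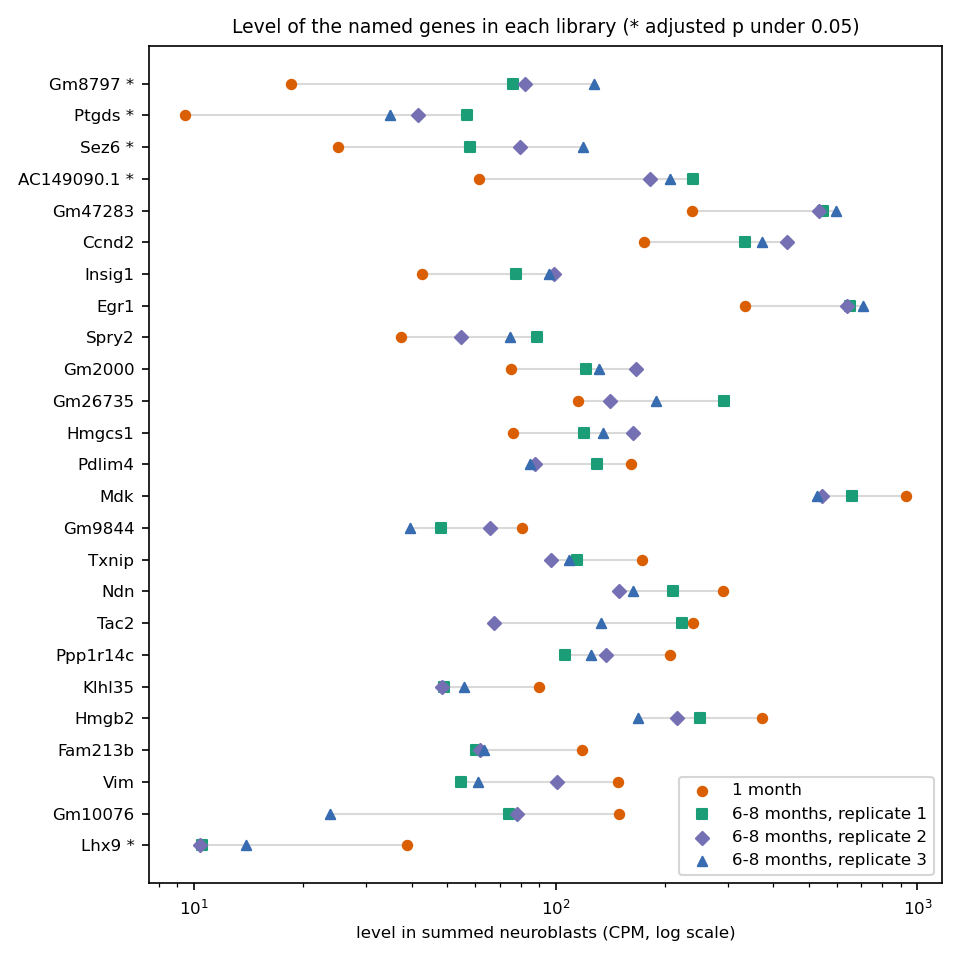
Level of the named genes in the summed neuroblasts of each library, in CPM on a log axis, with 1 point for each of the 4 libraries and a star at the 5 genes with an adjusted p under 0.05. The 1-month point lies outside the 3 later points for every gene drawn, which is how the genes without a star were chosen.

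The count of called genes rose when cells with transcripts of other lineages were left out. Without the neuroblasts that held Olig1, Olig2 or Sox10, 20 genes were called, 12 higher and 8 lower at 6-8 months, including all 5 of the main fit. These 20 included Ccnd2 (1.23 on the log2 scale), Insig1 (1.23), Hmgcs1 (0.99) and Egr1 (1.01) among the higher genes. Vim (−1.10), Hmgb2 (−0.93) and Fam213b (−0.93) were among the lower ones. Mcm6, also called lower, is a cycle gene that the rule used, so its call is no result. Ptgds (2.52) was called too. With at most 1 of 6 genes of astrocytes and stem cells allowed as well, 24 were called, 16 higher and 8 lower. These 2 selections were added after seeing the data. Leaving out replicate 1, the library with the fewest precursor transcripts and the least depth per cell, gave 31 calls, 20 higher and 11 lower, among them Vim, Hmgb2, Mdk, Ndn and Tac2 on the lower side. The higher side then also held Apoe (0.99 on the log2 scale), Ptn (0.91) and Cspg5 (0.91), genes known from glia, and the part of glial RNA in these calls was not tested. With no filter on low genes, Dlx1 and Dlx2 were among 23 calls.

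Neuroblast stages were read from Calb2 and Tac2, the gene of the neurokinin B precursor. Fewer neuroblasts held Tac2 at 6-8 months, while the 1-month share with Calb2 lay within the later range. Tac2 was found in 35.5% of neuroblasts at 1 month (226 of 637, exact 95% interval 31.8 to 39.3%) and in 25.2%, 21.5% and 26.5% at 6-8 months, a mean of 24.4% ± 2.56 (SD, n = 3). The 1-month share lay above all 3. Calb2 was found in 73.9% at 1 month and in 69.0%, 70.0% and 75.5% later, a mean of 71.5% ± 3.48, with the 1-month share inside that range. In oligodendrocytes, which should lack both, Tac2 was found in at most 0.06% and Calb2 in 5.88% of 34 cells at 1 month and at most 1.94% later. Median depths were 12860 UMIs in those oligodendrocytes at 1 month and 4968.5 to 7128 later.

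The 1-month share of Tac2 was also the highest of the 4 at equal depth, while the order of the later libraries differed. With every cell thinned to 3000 UMIs, which left out 12 neuroblasts at 1 month and 15, 4 and 4 later, Tac2 was found in 24.2% at 1 month and in 16.4%, 9.52% and 14.6% at 6-8 months. Calb2 was found in 64.8% and then in 62.6%, 63.5% and 66.0%. With 3 libraries against 1, the smallest p an exact permutation test can give is 0.25, so no share could pass a threshold of 0.05. The summed level of Tac2 spread widely at 6-8 months: it was 240 CPM at 1 month and 224, 67.7 and 134 CPM later. The log2 fold change of −0.75 (SE 0.34) was not called (adjusted p = 0.998), and replicate 1 nearly matched 1 month in level with a lower share of cells.

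Sorted by both genes, 27.2% of neuroblasts at 1 month held Calb2 and Tac2, against 17.6%, 14.6% and 22.6% later. Calb2 without Tac2 was found in 46.8% and then 51.4%, 55.4% and 52.9%. Tac2 without Calb2 was found in 8.32% and then 7.62%, 6.92% and 3.89%. Neither gene was found in 17.7% and then in 23.3%, 23.1% and 20.6%. The 1-month library lay outside the later range in all 4 classes, which together make up all neuroblasts and so are not independent. For Tac2 only it lay inside with no other-lineage gene, with no cycle gene, and with no Olig1, Olig2 or Sox10. For Calb2 and Tac2 it lay inside with cells thinned to 2000 UMIs. The difference in the share with neither gene turned in direction among neuroblasts with no cycle gene. Eomes, of intermediate progenitors, was found in 52.4% at 1 month and in 51.9%, 39.2% and 49.4% later, and its level did not separate the ages (154 CPM against 167, 135 and 149 CPM). Neurog2, expressed just before Neurod1, was found in 13.0% and then in 10.5%, 10.0% and 11.3%.

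The classes differed in the same way at both ages in genes that neither class used. Eomes was higher in neuroblasts without either gene (316 CPM at 1 month and 296, 230 and 259 CPM later) than in those with Calb2 only (98.8 CPM and then 90.7, 63.3 and 84.8 CPM). Prox1 was higher in those with Calb2 only (397 CPM and then 601, 417 and 436 CPM) than in those with neither (185 CPM and then 329, 241 and 186 CPM). Stmn2, a microtubule regulator of growing axons, followed Prox1, with 993 CPM in Calb2-only neuroblasts at 1 month against 388 CPM in those with neither. All 4 libraries showed these 3 directions. Few cells stood behind some classes, such as the 9 neuroblasts with Tac2 only in replicate 2.

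**Figure D3:**
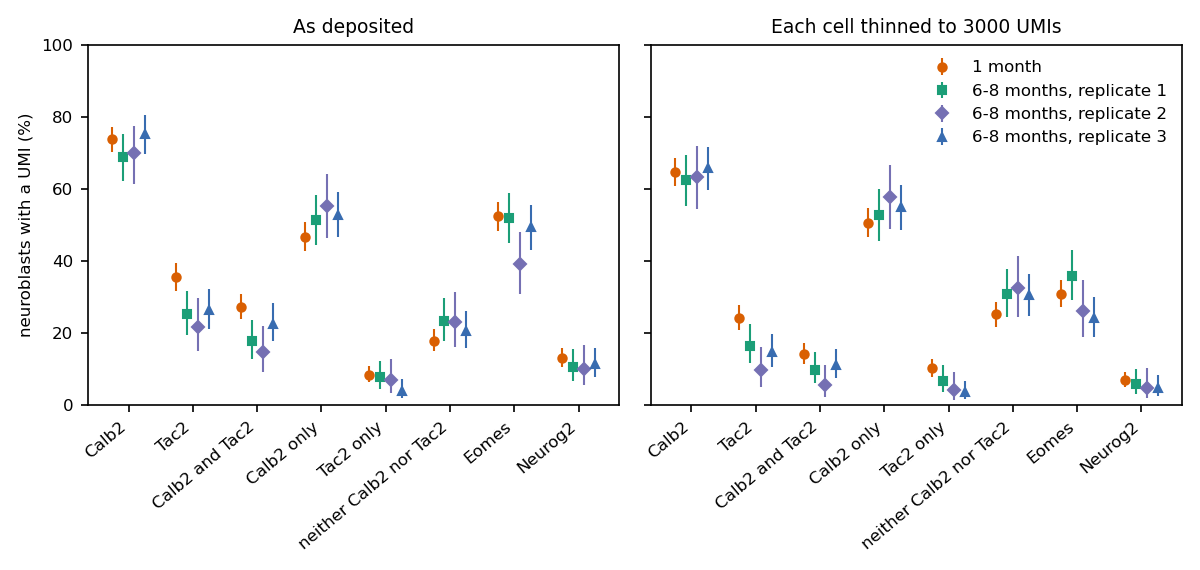
Percentage of neuroblasts with a UMI of each stage gene or pair of genes in each library, with exact 95% binomial intervals, as deposited (left) and with each cell thinned to 3000 UMIs (right). Tac2 is highest at 1 month in both panels, at 35.5% and 24.2%, while the Calb2 shares of the 4 libraries overlap.

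Stage genes are given by their levels, since with 0.0886% of all genes called and 3.81% at an unadjusted p under 0.05 a list of this size would hold few or no calls. Of 16 early genes 13 were tested and 0 were called by edgeR, 2 of them at an unadjusted p under 0.05, with a median log2 change of 0.11 beside 0.01 over all genes. The 2 were Tac2 and Mfap4, an extracellular matrix protein, which had 195 CPM at 1 month and 148, 145 and 120 CPM later. Of 30 late neuroblast and immature granule neuron genes 18 were tested and 0 called, with a median of 0.02, and 0 had an unadjusted p under 0.05. Rbfox3, the neuronal splicing factor NeuN, had 159 CPM and then 194, 166 and 243 CPM. DESeq2 called none of these genes either. Without replicate 1 the medians of the early and late lists were 0.01 and −0.11, and without replicate 2 they were 0.18 and 0.10.

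The same holds for the lists of the neuronal cytoskeleton and of wiring, read against the same 0.0886% and 3.81% over all genes. In the cytoskeleton list 30 of 33 genes were tested, 0 were called, and the median was −0.06, with 3 at an unadjusted p under 0.05. These were Dpysl4 (69.4 CPM at 1 month, then 42.0, 28.6 and 54.8 CPM), Dpysl2 (300.0 CPM, then 598, 336 and 554 CPM), which both shape growth cones, and the tubulin Tubb4b (214 CPM, then 153, 157 and 163 CPM). For guidance, adhesion and migration 18 of 37 were tested and the median was 0.26. Of that list Cxcr4, the receptor that holds migrating precursors in place, had 33.6 CPM and then 81.2, 28.6 and 56.1 CPM, so that its groups overlapped. For transmitter receptors and chloride transporters 8 of 29 were tested, and the median of 0.30 came with no member at an unadjusted p under 0.05. In neuroblasts with no cycle gene the medians of the guidance and receptor lists were 0.09 and −0.14. Without replicate 1 the guidance median was 0.17, and without replicate 2 the cytoskeleton median turned to 0.02.

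Housekeeping lists showed small differences in 1 direction with no called gene, and their medians in other cells of these libraries are given below. Of 82 nuclear genes of oxidative phosphorylation 74 were tested, 7 had a change above 0, the median was −0.12, and the 1-month library lay above all later ones for 36 of them, beside 20% of all genes. Ndufv1, a subunit of complex I, had 146 CPM at 1 month and 117, 116 and 110 CPM later. Of 39 proteasome subunits 35 were tested, 4 had a change above 0, and the median was −0.14. Psmc2, an ATPase of the proteasome cap, had 150 CPM and then 124, 127 and 110 CPM. These differences rest in part on 1 library: without replicate 3 the medians were −0.02 and −0.04, with 30 of 74 and 12 of 35 above 0. Without replicate 1 the median for oxidative phosphorylation was −0.20.

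Splicing factors leaned the other way. All 25 were tested, 21 had a change above 0, the median was 0.11, and the 1-month library lay below all later ones for 12 and above them for 0, beside 21.7% and 20% of all genes. Hnrnpm, an RNA-binding splicing regulator, had 130.5 CPM and then 176, 221 and 196 CPM (0.59 on the log2 scale, SE 0.21, adjusted p = 0.998). In neuroblasts without Calb2 and Tac2 the median turned to −0.02. Cytosolic ribosomal proteins, 80 of 83 tested, had a median of −0.02, which was −0.12 without replicate 1 and 0.07 without replicate 3. Of 11 immediate early genes tested, 9 had a change above 0 with a median of 0.21, led by Egr1 and Junb (253 CPM and then 351, 368 and 379 CPM), while Klf2 went the other way (45.2 CPM and then 30.8, 19.1 and 26.6 CPM). Without replicate 1 the median was 0.08, with 7 of 11 above 0.

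**Figure D4:**
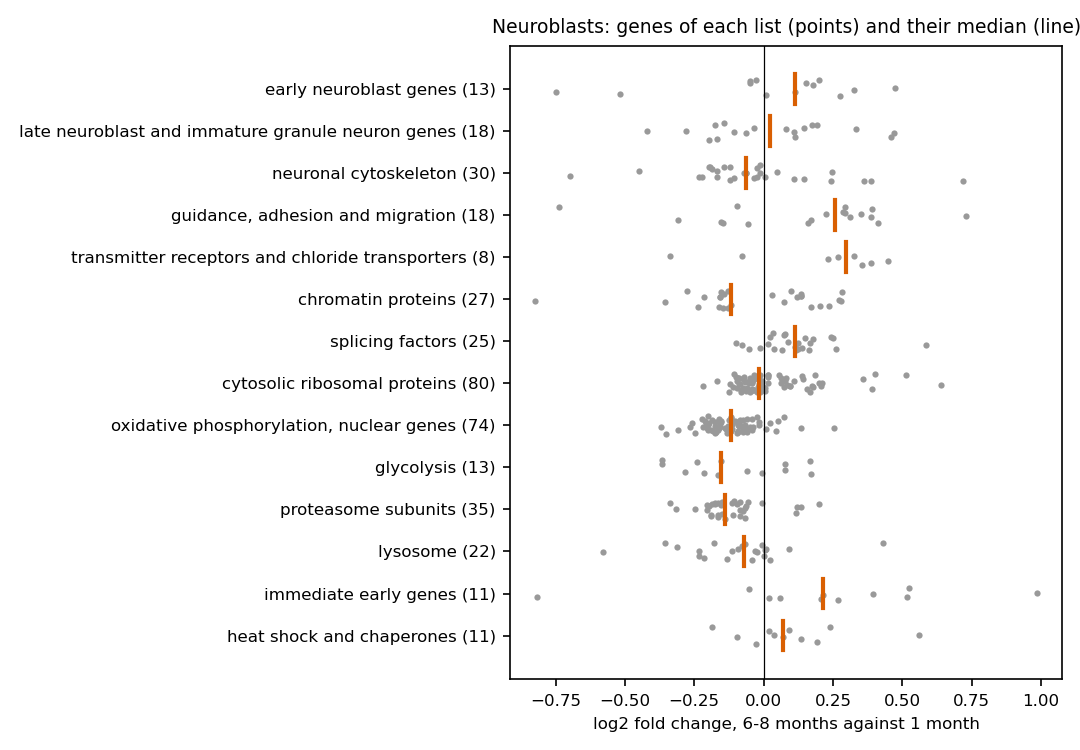
Log2 fold change between 6-8 months and 1 month for each tested gene of 14 lists (points, with random vertical offset) and the median of each list (line), with the number of genes tested in brackets. Among the 14 lists drawn, medians run from −0.15 for glycolysis to 0.30 for transmitter receptors and chloride transporters, imprinted genes (−0.17, 9 tested) and other lists being left out, and most points lie within 0.5 of 0.

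The same libraries held other cells, in which the change with age was fitted over the same 5641 genes. Dividing neuroblasts were cells with at least 3 of the 5 neuroblast markers and at least 5 of the cycle genes (195 at 1 month and 24, 37 and 121 later). Oligodendrocyte precursors were cells with at least 3 of 5 markers (Pdgfra, Cspg4, Olig1, Olig2 and C1ql1) and at most 2 of those of neuroblasts (623 and then 125, 1305 and 1857). In dividing neuroblasts 36 genes (0.638%) were called between the ages, and in oligodendrocyte precursors 51 (0.904%). The 3 sets share their libraries and thus the 1-month sample, so their values are given side by side. The median of the oxidative phosphorylation list was −0.12 in neuroblasts, −0.11 in dividing neuroblasts and −0.12 in precursors. In the same order, the proteasome median was −0.14, −0.04 and −0.11. Immediate early genes had medians of 0.21, 0.46 and 0.73, and splicing factors 0.11, 0.17 and −0.03. Among the neuronal lists, guidance, adhesion and migration had 0.26, −0.67 and 0.11, and transmitter receptors and chloride transporters 0.30, −0.21 and 0.14. Late neuroblast and immature granule neuron genes had 0.02, −0.49 and −0.005, early genes 0.11, 0.11 and −0.39, and the cytoskeleton −0.06, −0.12 and −0.01.

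Sez6 and Lhx9 were called in both kinds of neuroblast and not in precursors. In dividing neuroblasts Sez6 had 21.2 CPM at 1 month and 36.8, 59.6 and 72.1 CPM later (1.57 on the log2 scale, SE 0.33, adjusted p = 0.00604), and Lhx9 had 27.3 CPM and then 4.60, 8.76 and 4.12 CPM (−2.35, SE 0.51, adjusted p = 0.00912). In precursors the change of Sez6 was 0.28 (SE 0.23, adjusted p = 0.995), and the difference between neuroblasts and precursors passed the test of the interaction (1.59, SE 0.24, adjusted p = 0.00782) but not with scaling by total UMIs (adjusted p = 0.0526). Lhx9 was near absent from precursors, with 5, 1, 4 and 12 UMIs in the 4 libraries, and its interaction was not called (adjusted p = 0.899).

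The predicted genes moved in all 3 sets. Gm8797 rose by 2.82 in dividing neuroblasts (adjusted p = 4.5e-08) and by 2.66 in precursors (adjusted p = 8e-23), and AC149090.1 by 1.56 in both (adjusted p = 0.00691 and 1.45e-10). Their interactions with precursors were −0.25 (SE 0.28) and 0.14 (SE 0.24) and were not called. Ccnd2, uncalled in neuroblasts, rose by 1.09 in dividing neuroblasts (adjusted p = 0.0205) and by 1.21 in precursors (adjusted p = 0.00459). Egr1 rose by 1.38 and 2.54 (adjusted p = 0.0156 and 2.25e-14). Ptgds rose by 1.27 in precursors (adjusted p = 1.2e-06) and had a value of 0.54 in dividing neuroblasts (adjusted p = 0.999).

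Vim and Fam213b fell in dividing neuroblasts, by 1.15 and 1.40 (adjusted p = 0.00569 and 0.0279), and were not called in precursors (0.07 and −0.36). Hmgcs1 rose by 1.15 in dividing neuroblasts (adjusted p = 0.0459), was at −0.31 in precursors, and differed between neuroblasts and precursors (interaction 1.17, SE 0.20, adjusted p = 0.0172), though not with scaling by total UMIs (adjusted p = 0.0906). Ppp1r14c fell by 2.58 in dividing neuroblasts (adjusted p = 6e-05), and the reporter eGFP by 1.05 (adjusted p = 0.029), beside −1.08 in neuroblasts (236 CPM and then 92.4, 154 and 97.4 CPM, adjusted p = 0.113). By edgeR, eGFP was called lower in neuroblasts in several alternatives. These included no other-lineage gene (−1.22), at least 4 markers (−1.20) and cells thinned to 3000 UMIs (−1.33). It was not called with total UMIs, DESeq2, filterByExpr or all 8 libraries in the fit, or without replicate 3. Nor was it called in neuroblasts with no cycle gene or in those without Calb2 and Tac2. Cells were gated on GFP, and the part of its level in the other differences was not tested.

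Over all genes, the change with age differed between neuroblasts and oligodendrocyte precursors for 13 of 5641 genes (0.23%) and between neuroblasts and dividing neuroblasts for 0 (0%). In the second comparison 224 genes had an unadjusted p under 0.05 in edgeR, and scaling by total UMIs also gave 0 calls. Without replicate 1, 2 or 3 there were 2, 15 and 3 calls.

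**Figure D5:**
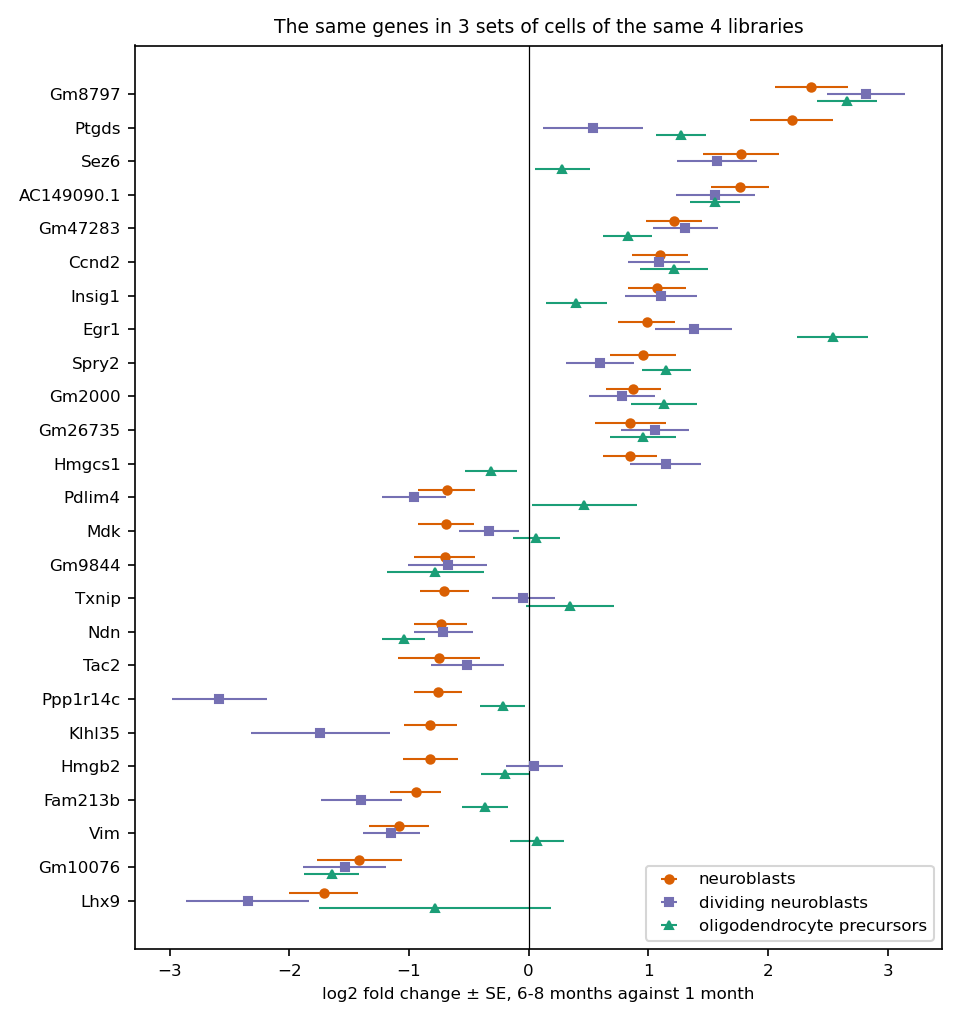
Log2 fold change between 6-8 months and 1 month, with its SE, of the named genes in neuroblasts, dividing neuroblasts and oligodendrocyte precursors of the same 4 libraries, drawn where the gene had at least 20 UMIs in that set of cells. Gm8797 and AC149090.1 lie to the right in all 3 sets, while Sez6 and Hmgcs1 lie to the right in both kinds of neuroblast and at 0.28 and −0.31 in precursors.

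The level of Xist and the share of recombined neuroblasts also varied between libraries. The mix of sexes in each library was not tested. Xist, transcribed from the inactive X chromosome of females, had 537 CPM at 1 month and 1283, 587 and 891 CPM later in these mixed pools. It was not called in the main fit (0.78 on the log2 scale, SE 0.33). Among neuroblasts with no oligodendrocyte lineage gene and at most 1 glial gene, Xist was called higher at 6-8 months (0.91). By UMIs of the recombined and intact reporter locus (over 2 and under 8), 38.1% of neuroblasts at 1 month counted as recombined and 42.9%, 32.3% and 46.7% did so at 6-8 months, a range that holds the 1-month share.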

How the data were processed

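Droplet 3′ RNA libraries of sorted dentate gyrus cells were processed by the authors with Cell Ranger 3.0.2 on a custom mm10 genome with reporter elements and merged without depth normalization. Cutadapt 1.18 is also listed in the submitters' processing notes. The deposited matrix holds UMI counts for 31058 genes and elements, and barcode suffixes name the library. Everything after that was computed here (Python 3.11.15, R 4.3.3). UMIs were summed over the neuroblasts of each library, scaled with TMM and tested with edgeR 4.0.16 (quasi-likelihood F test, Benjamini-Hochberg). Residual df were 2, and the lone 1-month library was assumed to vary like the other 3. On simulated data for this comparison (5641 genes, 200 changed by 1.5 on the log2 scale), 99% were recovered and 4.57% of calls were false. The simulation used a single dispersion of 0.02 and no smaller change. It therefore does not measure the recovery of smaller changes, and it cannot check the spread at 1 month. DESeq2 1.42.0 was an alternative. No doublet caller was run, and doublets were limited only by the rule's other-lineage genes. Where the labels give 6 months, the study's 6-8 months is used. Named genes are the 12 largest changes per direction of at least 50 CPM. Called genes came first, and then genes with 1 month outside the later range. Genes of the rule, 6 listed sex-linked genes, reporter elements and mitochondrial genes were left out. Gm47283 was not among those 6 and was kept. Up to 4 genes per list were also named. Some genes that this rule names are not reported here. Lhx9 and Ptgds, below that level as calls of the fit, Mbp, Prox1, Neurod2, Gad2 and genes named for a stage or an alternative were added after their values were seen. Members and lists were chosen with earlier results of these data known. Coordinates are from GENCODE M21 (GRCm38), which matched 5633 genes. The labels number the later libraries as replicates but tie none to particular animals. The p-values of the main fit rest on the spread among these later libraries, moderated across genes, and on no spread at 1 month.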

Additional observations from a re-analysis of the deposited data

Results flagged for a closer look

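The change with age differed between neuroblasts and oligodendrocyte precursors of the same libraries for 13 genes by edgeR's interaction test (adjusted p under 0.05). Values are the log2 change with age in neuroblasts minus that in precursors. It was higher in neuroblasts for Zfp184 (2.58), Ezr (1.69), Sez6 (1.59), Hmgcs1 (1.17), Nell2 (0.96), Fyn (0.90) and Pim3 (0.84). It was lower for Dpysl5 (−3.26), Ppp1r14a (−2.82), Fosb (−2.21), Csf2ra (−1.39), Prrt1 (−1.35) and Pla2g7 (−1.19).

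In neuroblasts alone only Sez6 of these genes was called between the ages. Fosb, an immediate early gene, was 34.5 CPM in neuroblasts at 1 month and 42.0, 59.0 and 49.5 CPM later, while in precursors it went from 10.6 CPM to 46.9, 69.6 and 80.9 CPM. Ezr, a linker of membrane and actin, was 284 CPM in neuroblasts and then 251, 264 and 388 CPM, and 10.9 CPM in precursors and then 3.47, 2.88 and 4.52 CPM. Zfp184 changed by 0.18 on the log2 scale in neuroblasts. In precursors it went from 11.1 CPM to 1.74, 1.84 and 2.46 CPM, from 45, 1, 16 and 36 UMIs. Dpysl5 and Ppp1r14a were under 7 CPM in every precursor library. For Sez6, Hmgcs1 and Nell2, a secreted protein of neurons, the log2 change was 1.77, 0.85 and 0.80 in neuroblasts and 0.28, −0.31 and −0.17 in precursors. Nell2 had 43.8 CPM in neuroblasts at 1 month and 69.3, 70.3 and 88.8 CPM later, against 104 CPM and then 83.4, 78.1 and 109 CPM in precursors.

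With total UMIs in place of TMM scaling 2 of the 13 remained, Fosb and Zfp184. Without replicate 1 all 13 were among 155 calls, without replicate 2 10 of them were among 16, and without replicate 3 11 were among 23.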

How the results depend on the processing

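The count of 5 called genes became 8 with total UMIs, 2 with filterByExpr, 23 with no filter on low genes, 3 with all 8 libraries in the fit, 9 with cells thinned to 3000 UMIs, 22 with no other-lineage gene, 9 with at least 4 markers, 10 in cells with Calb2 or Tac2 and 1 in cells with neither. It became 20 and 24 under the selections added after seeing the data, and 7 with DESeq2. Leaving out 1 library at 6-8 months gave 4 to 31. Gm8797 was called in 15 of 16 alternatives and AC149090.1 in 14 of 16. Sez6 was called in 12 of 16, Ptgds in 11 of 15 and Lhx9 in 11 of 15. None of the 5 changed sign in the alternatives in which it was tested. Among these genes only Gm8797 was called with filterByExpr, while each was called with no filter on low genes. The highest adjusted p was 0.999 for Ptgds (all 8 libraries) and 0.326 for Sez6 (filterByExpr).

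The interaction with oligodendrocyte precursors gave 2 calls with total UMIs and 16 to 155 with 1 library left out. That with dividing neuroblasts gave 2 to 15 with 1 library left out, against 0. In percentage points (6-8 months minus 1 month), Calb2 moved from −2.43 to 1.59 when thinned to 2000 UMIs and 4.79 with no cycle gene. Tac2 moved from −11.1 to −8.04 at 2000 UMIs. The share with neither gene moved from 4.60 to 6.13 at 3000 UMIs, 2.88 at 2000 UMIs and −0.24 with no cycle gene, where the direction turned. Calb2 only moved from 6.46 to 12.5 with no cycle gene. The share of neuroblasts moved from −13.7 to −18.6 when cells were thinned before the rule. The cause was not tested. The comparison of ages had no pairing of libraries, while the interaction tests paired the sets of cells within each library. Depth and the single library at 1 month limit the fit, whose median SE was 0.24 on the log2 scale.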

Other observations

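Genes of sterol synthesis and uptake were listed after Insig1 and Hmgcs1 had been seen, so they get no test and support nothing about that pair. Of 23 genes 17 were tested, 14 had a change above 0 in neuroblasts, 0 were called by edgeR, 7 had an unadjusted p under 0.05 (3.81% of all genes did), and the 1-month library lay below all later ones for 11 (21.7% of all genes). Insig1 and Hmgcs1 are themselves counted among the 17, the 14, the 7 and the 11. The median log2 change of the list, with that pair in it, was 0.33 in neuroblasts, 0.27 in dividing neuroblasts and −0.07 in oligodendrocyte precursors. Cyp51, which demethylates lanosterol, had 51.7 CPM at 1 month and 81.2, 96.4 and 86.3 CPM later. Msmo1, a later oxidase, had 38.4 CPM and then 50.4, 84.2 and 56.5 CPM. Dhcr7, Ebp, Sc5d and Pmvk, by contrast, had log2 changes between −0.11 and 0.07.

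Apoe, a lipid carrier of astrocytes, differed widely among the later libraries: it had 523 CPM at 1 month and 104, 1311 and 832 CPM at 6-8 months. Replicate 1, with the lowest Apoe, was also the library with the fewest precursor transcripts in its neuroblasts.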
